A study of Mus musculus with 54 samples.

Results

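This comparison asks how the response of lung fibroblasts to transforming growth factor β1 (TGF-β1) differed in a culture medium labelled free of leucine, isoleucine and valine, the branched-chain amino acids (BCAA). It is an interaction: the change with TGF-β1 in BCAA-free medium minus the change with TGF-β1 in complete medium, for every gene. It uses 12 of the 54 RNA-seq libraries of the study, 4 groups of 3, and 13084 of the 26264 genes listed for fibroblasts, those with a TPM (each transcript's share of its library, scaled to a fixed total) of at least 1 in at least 3 fibroblast libraries. The cells were wild-type primary lung fibroblasts of mice 6 to 8 weeks old; the strain and sex of these donors are not given in the sources used here. They were maintained in DMEM/F-12 with 10% fetal bovine serum at 5% O2 and 5% CO2, kept for 24 h in complete medium or in medium without BCAA, and then given 20 ng/mL TGF-β1 or PBS for 48 h. Another 12 libraries came from cells in BCAA-free medium to which BCAA, or their branched-chain keto acids (BCKA), had been returned, each with PBS or TGF-β1 (3 libraries per group). The labels do not say whether serum was added to the BCAA-free medium or had been dialysed, and BCAA in that medium were not measured here. The question is which parts of the TGF-β1 response the cells still made without BCAA.

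As background, TGF-β1 turns fibroblasts into myofibroblasts, cells that contract through smooth muscle actin fibres and secrete collagen. Its receptors phosphorylate SMAD proteins, which enter the nucleus and act with other regulators, among them serum response factor on contractile genes. Leucine, isoleucine and valine are essential amino acids, so a cell without them depends on serum and on its own protein turnover. An uncharged tRNA activates the kinase GCN2, which favours translation of the transcription factor ATF4, and ATF4 raises genes for amino acid uptake, amino acid synthesis and tRNA charging. Leucine is also a main signal to the growth-promoting kinase complex mTORC1, and sterol synthesis genes are driven by the SREBP factors.

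The 12 libraries listed 15003 to 16653 genes above 0, and their correlation with replicates lay between 0.953 and 0.997 (Pearson's r across genes, all 24 fibroblast libraries). Free_TGFb replicate 1, from BCAA-free medium with TGF-β1, stood apart: 1702 tested genes lay over 1 log2 from the mean of its replicates, against 393 and 38 in the other Free_TGFb libraries, 134 in Complete_TGFb replicate 2 and at most 56 in the rest. Results that rest on it are given with and without it. The labels do not say that replicates were separate cultures or animals, so p-values measure only the spread between these samples, which may be technical. The fibroblast identity of the cells was checked with markers. Pdgfra averaged 1230 TPM in complete medium with PBS and 494 TPM in BCAA-free medium with TGF-β1, while Ptprc, Fcgr1, Cd3e, Sftpa1 and Nkx2-1, which mark leukocytes and lung epithelium, were at 0 in all 12 libraries. Other markers of these cells were above 0, with Cd14 at 42.7, Lyz2 at 4.83, Hopx at 3.78 and Ager at 3.47 TPM in complete medium with PBS. The summed level of the 14 alveolar and adventitial fibroblast markers was 6828 to 7117 TPM in complete medium with PBS, 4289 to 4396 with TGF-β1, 5003 to 5422 in BCAA-free medium with PBS and 1717 to 2404 with TGF-β1. In bulk samples, fewer cells of a type and less RNA per cell cannot be told apart.

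The response to TGF-β1 differed between the media at 6225 of 13084 genes, 3820 higher in BCAA-free medium (29.2% of those tested) and 2405 lower (18.4%; limma, adjusted p under 0.05). "Higher" and "lower" here refer to the difference between the 2 responses, so a higher value can be a larger rise or a smaller fall. The difference was at least 1 log2 at 2506 genes, 1339 higher and 1167 lower. Without Free_TGFb replicate 1, 7430 genes passed, and 5876 passed in both fits with the same sign. The median of all genes was 0.13 log2, and centring each library on its median log2 ratio moved it by -0.12, so that the split became 3069 higher and 3058 lower (50.1% of called genes higher, against 61.4% as deposited). A gene was counted as a responder in a medium at an adjusted p under 0.05 and a change of at least 1 log2. By that rule 370 genes rose in complete medium (2.83%) and 1066 fell (8.15%), while 1024 rose in BCAA-free medium (7.83%) and 1883 fell (14.4%). In all, 1436 genes responded in complete medium and 2907 in BCAA-free medium, 931 of them in both. Of the responders in complete medium 859 (59.8%) had a response that differed between the media. Across genes, which are not independent replicates, the 2 responses had a Pearson's r of 0.57 and a Spearman's rho of 0.44. They share no library.

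Genes were sorted by their 2 responses and the test of the difference, which is a description and carries no further test. A response was lost at 370 genes (161 that rose in complete medium and 209 that fell): the difference passed against the response, and the gene was no responder in BCAA-free medium. Lost does not mean absent: in BCAA-free medium 131 of them still had a called change in the same direction, under 1 log2. A further 58 had one in the opposite direction, and 181 had none. The response was reversed at 45 genes (40 and 5), reduced but still present at 46 (20 and 26), kept, with no difference called, at 442 (61 and 381) and enlarged at 398 (61 and 337). It was gained at 1704 genes, responders in BCAA-free medium only (819 rose and 885 fell). In complete medium, 599 of these gained genes had a called change in the same direction, under 1 log2. Another 197 had one in the opposite direction, and 908 had none. A further 407 responders had no difference called that would place them, and 9672 genes responded in neither medium. The plot of the 2 responses shows these sets. By direction, of 370 genes that rose in complete medium, 161 were lost and 40 reversed against 61 kept and 61 enlarged, while of 1066 that fell, 209 were lost and 5 reversed against 381 kept and 337 enlarged. Among the lost rises the median response was 1.30 log2 in complete and 0.00 in BCAA-free medium, and among the reversed rises 1.35 and -1.46. Without Free_TGFb replicate 1 the counts were 405 lost, 46 reversed, 64 reduced, 409 kept, 411 enlarged and 1701 gained, of which 347, 41, 40, 361, 376 and 1406 were in the same set in both fits.

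**Figure D1:**
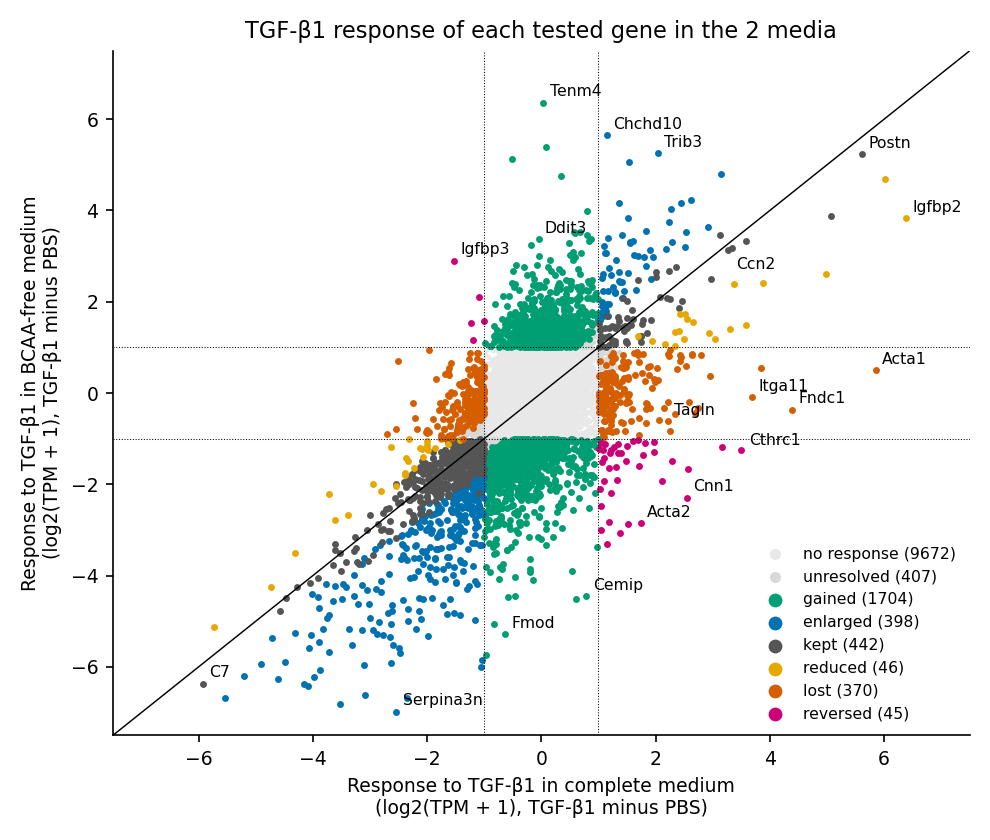
Each point is 1 of the 13084 tested genes, with the TGF-β1 response in complete medium on the x axis and in BCAA-free medium on the y axis, both as log2(TPM + 1) differences between means of 3 libraries. The diagonal marks equal responses and the dotted lines 1 log2. Acta1 and Itga11 lie near 0 on the y axis, Acta2 and Cnn1 below it, Postn and Ccn2 on the diagonal, and Tenm4 and Ddit3 rose in BCAA-free medium alone.

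Most contractile genes of the myofibroblast had a lower response to TGF-β1 in BCAA-free than in complete medium. Of 21 tested, the response was lower in BCAA-free medium at 19 (90.5%, against 18.4% of all genes) and higher at 1, with a median difference of -1.96 log2 against 0.13 for all genes. The median response of the list was 0.92 log2 in complete and -1.12 in BCAA-free medium. Skeletal muscle α-actin, Acta1, a thin filament actin, was at 0.203, 0.181 and 0.247 TPM in complete medium with PBS and 63.4, 77.7 and 66.2 with TGF-β1. In BCAA-free medium it was at 0.264, 0.222 and 0.311 TPM with PBS and 0.571, 0.895 and 0.933 with TGF-β1. Every library with TGF-β1 in complete medium stood far above all others, and in BCAA-free medium the treated libraries stayed under 1 TPM. The difference was -5.35 ± 0.16 log2 (SE, n = 3 per group, limma adjusted p = 2.54e-16).

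Smooth muscle α-actin, Acta2, the standard myofibroblast marker, was reversed. Its level was 709.8, 696 and 684 TPM in complete medium with PBS and 2124, 2905 and 2045 with TGF-β1. Without BCAA it was 1054, 1210 and 1134 TPM with PBS and 109, 205 and 167 with TGF-β1, so the 3 treated libraries lay below all 9 others. With PBS, its level was already 0.70 log2 higher without BCAA (adjusted p = 0.0353). The responses were 1.74 and -2.86 log2, a difference of -4.60 ± 0.23 (adjusted p = 6.12e-13). Calponin, Cnn1, an actin-binding protein of smooth muscle, was reversed too, from 24.2, 23.9 and 24.1 to 135, 168 and 136 TPM in complete and from 32.4, 37.9 and 46.2 to 3.69, 9.28 and 9.84 TPM in BCAA-free medium (2.54 against -2.29 log2, adjusted p = 1.39e-11). Actg2 and Myh11, the smooth muscle γ-actin and myosin heavy chain, were reversed as well. The response of transgelin, Tagln, another actin-binding protein, was lost: 2.21 log2 in complete and -0.62 in BCAA-free medium (adjusted p = 8.23e-11), as were those of Actn1, Des and Tpm4. Leiomodin, Lmod1, which nucleates actin filaments, and the regulatory light chain Myl9 gained a fall, -3.90 and -3.38 log2 against 0.54 and 0.98 in complete medium. Falls were also gained by Cnn2, Csrp1, Mylk, Smtn, Synpo2 and Vcl, whereas Cald1, caldesmon, gained a rise. Acta1, Acta2 and Actg2 are near-identical in coding sequence, and the sources used here do not give how reads shared between them were counted. Of the smooth muscle and pericyte markers, 3 of 7 tested had a lower response and none a higher one (median -0.39 log2), and the part of such cells in these results was not tested.

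The promoter of Acta1 shows the kind of element through which serum response factor acts on contractile genes, the CArG box (CC, 6 bases of A or T, GG; shown in capitals). The 250 bases before the RefSeq start on GRCm38.p6 are chr8:123894776-123895025, minus strand, and the match begins 73 bases before the start.
Acta1: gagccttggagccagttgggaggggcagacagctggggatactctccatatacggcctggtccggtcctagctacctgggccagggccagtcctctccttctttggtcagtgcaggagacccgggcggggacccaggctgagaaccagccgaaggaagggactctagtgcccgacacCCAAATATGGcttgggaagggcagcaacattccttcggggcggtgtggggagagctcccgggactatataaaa
Of the 18 contractile genes tested that had a RefSeq promoter entry (250 bases before to 50 after the start, both strands searched), 4 held a CArG box: Acta1, Cnn2, Myl9 and Vcl. A gene was counted if any of its windows held a match. The share was 1.54% of the 10453 tested genes with an entry and 1.63% of all 32851 single windows of this length. A match is a description of the letters and not of binding.

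Integrins and other matrix receptors differed by member. Of 15 integrin genes, 7 had a lower response in BCAA-free medium and 2 a higher one (46.7% and 13.3%, against 18.4% and 29.2% of all genes; median -0.47 log2). Without Free_TGFb replicate 1, 9 were lower and 3 higher (median -0.44). Integrin α11, Itga11, a collagen receptor subunit of activated fibroblasts, rose from 41.6, 41.7 and 31.6 to 585, 364 and 589 TPM with TGF-β1 in complete medium. In BCAA-free medium it was at 36.2, 42 and 39 TPM with PBS and 29.2, 39.7 and 41.9 with TGF-β1, and the 2 groups overlapped. The difference was -3.78 ± 0.22 log2 (adjusted p = 8.87e-12). Integrin α8, Itga8, which binds nephronectin, rose by 0.60 log2 in complete medium and fell by 4.51 log2 without BCAA, and the laminin receptor subunit Itga6 gained a rise of 1.52 log2 against -0.40. Itga2 and Itga5 were lost, and Itga3, Itga7, Itga9, Itgav, Itgb1, Itgb3, Itgb5 and Itgb7 responded in neither medium.

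Most matrix genes that differed had a lower response without BCAA. Of 42 matrix genes, 22 had a lower response without BCAA (52.4%, against 18.4% of all genes) and 4 a higher one, with a median of -0.77 log2. Without Free_TGFb replicate 1, 27 were lower and 4 higher, with a median of -1.04 log2. Cthrc1, a secreted protein that marks fibrogenic fibroblasts, was reversed: 8.46, 8.01 and 8.31 TPM went to 96, 122 and 93 in complete medium, and 9.39, 10.4 and 8.12 to 2.33, 4.24 and 3.73 in BCAA-free medium (difference -4.72 ± 0.21 log2, adjusted p = 1.4e-13). Thrombospondin 1, Thbs1, which can activate latent TGF-β, was lost, with a mean of 15830 TPM under TGF-β1 in complete and 1630 in BCAA-free medium (2.26 against -0.83 log2). Col12a1, Col5a1, Col5a3, Fbln5, Sparc and Tnc were lost too. Fndc1, a fibronectin type III domain protein, was lost, 4.39 against -0.37 log2 (adjusted p = 1.57e-11). Fibromodulin, Fmod, and collagen VI, Col6a1, already fell in complete medium (-0.63 and -0.97 log2), under the 1 log2 minimum. They are in the gained set, with falls of -5.28 and -3.81 log2 without BCAA. Of the 42, 4 were enlarged: Col5a2, a collagen V chain, rose further (2.29 against 3.32 log2), and Col14a1, Fbln1 and lumican, Lum, fell further (Lum -1.82 against -3.42). Postn, Eln and decorin, Dcn, were kept, Eln being reduced without Free_TGFb replicate 1.

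Fibrillar collagen I depended on Free_TGFb replicate 1. Col1a1 was at 4393, 4938 and 4643 TPM in complete medium with PBS and 24350, 21670 and 24430 with TGF-β1. In BCAA-free medium it was at 5008, 4342 and 4151 TPM with PBS and 27680, 4495 and 6052 with TGF-β1: replicate 1 was above every other library and replicates 2 and 3 near the PBS level. The difference was -1.31 ± 0.52 log2 (adjusted p = 0.0435) and -2.12 without that library (adjusted p = 7.3e-10), where the response counts as lost rather than reduced. It failed the threshold when any other of the 12 libraries was left out (adjusted p = 0.0534 to 0.141), without a low-value filter (adjusted p = 0.111) and in a fit of the 12 libraries alone (adjusted p = 0.154). Col1a2 (-0.50 log2, adjusted p = 0.373), Col3a1 (-0.43, adjusted p = 0.417) and elastin, Eln (-1.18, adjusted p = 0.0686), did not pass with all libraries. Without Free_TGFb replicate 1 they passed at -1.16, -1.06 and -2.00 log2 (adjusted p = 1.09e-06, 2.89e-06 and 1.25e-09). Fibronectin, Fn1, had a difference of -0.36 log2 (95% interval -1.14 to 0.42, adjusted p = 0.456) and 0.03 without it (adjusted p = 0.93).

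Genes that modify and cross-link collagen were in large part lower. Of 28, 21 had a lower response (75%) and 3 a higher one, with a median of -0.93 log2. The lysyl oxidases Lox, Loxl2, Loxl3 and Loxl4, which cross-link collagen, the prolyl hydroxylase subunits P4ha1, P4ha2 and P4ha3 and the lysyl hydroxylase Plod3 were lost. Loxl3 was at 189, 191 and 189 TPM in complete medium with PBS, 1207, 1128 and 1244 with TGF-β1, and without BCAA 196, 192 and 183 and then 558, 254 and 288 (2.65 against 0.85 log2, adjusted p = 2.22e-06). Its rise without BCAA passed the limma test (adjusted p = 0.000131) but was under the 1 log2 minimum. P4ha3 responded by 2.06 log2 in complete and -0.59 in BCAA-free medium (adjusted p = 1.59e-10). The procollagen protease gene Adamts14 gained a rise of 1.57 log2. Among 27 proteases and inhibitors, 14 had a lower and 6 a higher response (51.9% and 22.2%, against 18.4% and 29.2%; median -0.67). Cemip, which degrades hyaluronan, was at 3286, 1912 and 3387 TPM with TGF-β1 in complete medium and 73.1, 67 and 72 in BCAA-free medium, from 1712, 1653 and 1456 and 1624, 1357 and 1730 with PBS. The 3 treated libraries without BCAA lay far below all others (-4.45 log2, difference -5.24, adjusted p = 7.29e-14). Has2, which makes hyaluronan, kept part of its rise (3.30 against 1.41 log2, adjusted p = 3.93e-07). Timp1, an inhibitor of matrix metalloproteases, had responses of 0.996 and -0.997 log2 and a difference of -1.99 (adjusted p = 6.77e-06), and both responses fell just short of the 1 log2 minimum, so it is in neither the lost nor the reversed set.

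**Figure D2:**
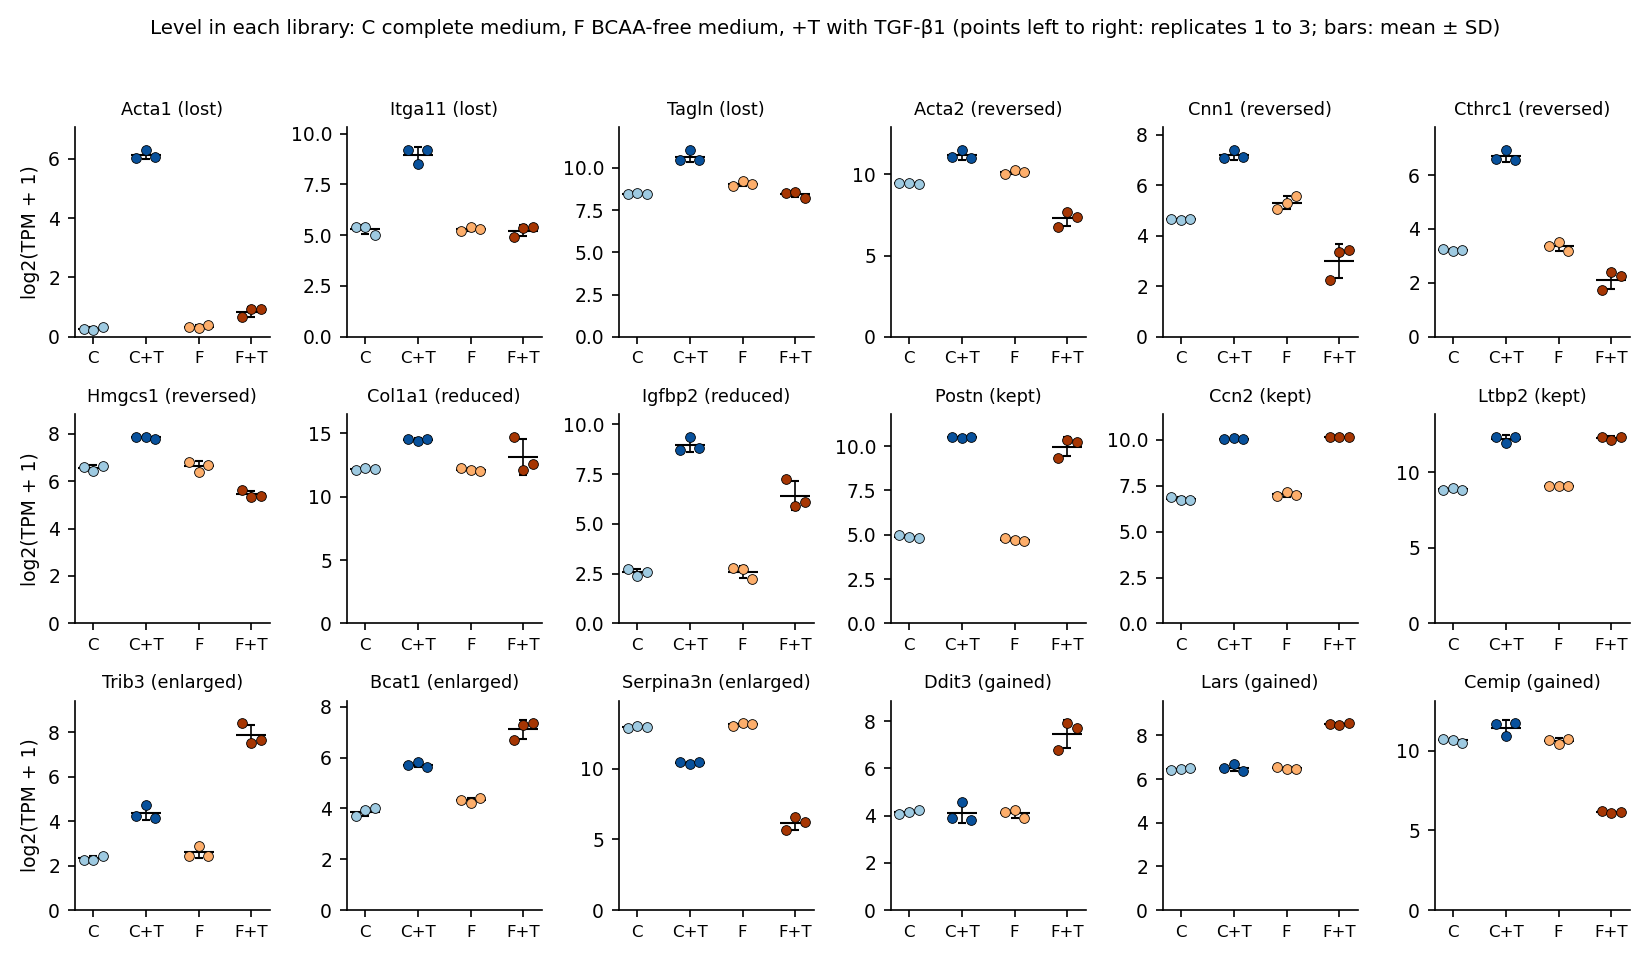
Levels on a log2(TPM + 1) scale (y axis) in the 12 libraries for 18 genes, by group (x axis): complete medium (C) and BCAA-free medium (F), each with PBS or with TGF-β1 (+T). Points are replicates and bars the mean ± SD of 3. Acta1 and Itga11 are high only in complete medium with TGF-β1, Postn and Ccn2 are high with TGF-β1 in both media, Lars and Ddit3 are high only in BCAA-free medium with TGF-β1, and 1 Col1a1 library stands above its replicates.

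The TGF-β pathway itself was not uniformly lower. Among 21 ligands, receptors and binding proteins, 9 had a lower response without BCAA and 5 a higher one (42.9% and 23.8%, against 18.4% and 29.2% of all genes; median -0.32 log2). The receptors Tgfbr1 and Tgfbr2 responded in neither medium, and the co-receptor Tgfbr3 was enlarged. Of the ligands, Tgfb2 was reversed (1.07 against -1.24 log2, adjusted p = 6.02e-09) and Tgfb3 gained a fall of -1.69 log2. Tgfb1 had responses of 1.00 and 1.60 log2, and its difference of 0.61 (adjusted p = 0.0322) was lost under 8 alternatives (adjusted p = 0.0529 to 0.128). Ltbp4, a matrix protein that holds latent TGF-β, gained a rise of 2.07 log2, and the activin antagonist follistatin, Fst, a fall of -1.15. Among 31 SMAD genes and TGF-β target genes, 12 had a higher response and 8 a lower one (38.7% and 25.8%, against 29.2% and 18.4%; median 0.34 log2).

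Of the 31 SMAD and target genes 3 were kept, Ccn2, Cdkn1a and Hmga2, the last of them enlarged without Free_TGFb replicate 1. Ccn2, connective tissue growth factor, was at 117, 105 and 106 TPM in complete medium with PBS and 1041, 1085 and 1054 with TGF-β1, against 122, 144 and 126 and 1123, 1157 and 1156 in BCAA-free medium. In each medium the treated libraries lay well above the PBS libraries, and the difference was -0.14 log2 with a 95% interval of -0.42 to 0.14 (adjusted p = 0.422). Other strong rises outside that list were kept too. Ltbp2, a matrix protein of the latent TGF-β binding family, had responses of 3.34 and 3.18 log2 (interval of the difference -0.49 to 0.16). It passed with array weights (-0.25, adjusted p = 0.0285) and without Complete_TGFb replicate 2 (-0.31, adjusted p = 0.0482). Periostin, Postn, a matricellular protein of scars, rose from 30.5, 28.8 and 27.4 to 1490, 1434 and 1476 TPM in complete and from 26.9, 25.4 and 24 to 648, 1277 and 1183 TPM in BCAA-free medium. Free_TGFb replicate 1 was the lowest treated library. The difference was -0.39 log2 (interval -0.85 to 0.08, adjusted p = 0.168), and it passed after centring (-0.50, adjusted p = 0.0259) and without Free_TGFb replicate 2 (-0.57, adjusted p = 0.0297). Ncam1 and the proteoglycan Cspg4 were kept as well, at 3.33 and 3.46 log2 in BCAA-free medium. Of the 442 kept genes, 373 had a 95% interval of the difference within 1 log2 of 0, and for the rest it reached further.

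Other targets were lost or enlarged. The transcription factor Snai1 (1.30 against -0.84 log2, adjusted p = 0.0013) and the oxidase Nox4 (1.22 against -0.56, adjusted p = 0.000306) were lost. Smad7, the inhibitory SMAD, and the cytokine Il11 were enlarged, 1.18 against 1.96 and 2.62 against 4.23 log2 (adjusted p = 0.000731 and 2.62e-07). Id3, a BMP target, gained a fall of -2.35 log2.

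Sterol and fatty acid synthesis genes also had lower responses without BCAA. Of 33 tested, 29 had a lower response without BCAA (87.9%, against 18.4%) and none a higher one. Their median response was 0.94 log2 in complete and -1.04 in BCAA-free medium, with a median difference of -2.01. Hmgcs1, the HMG-CoA synthase at the start of the mevalonate pathway, was at 95.5, 85.9 and 99.5 TPM in complete medium with PBS and 234, 233 and 216 with TGF-β1. In BCAA-free medium it was at 112, 81.5 and 103 TPM with PBS and 48.3, 39 and 40.0 with TGF-β1. No library of the treated groups overlapped its PBS group in either medium, and the directions were opposite (difference -2.47 ± 0.15 log2, adjusted p = 1.48e-11). Acat2, Cyp51, Fdps, Msmo1, Stard4 and the desaturase Scd2 (1.49 against -1.48 log2) were reversed, and Fdft1, Lss, Mvd, Pmvk, Sc5d and Scd1 lost. Nsdhl and Dhcr7, late enzymes of cholesterol synthesis, gained falls of -2.18 and -2.07 log2. The Hmgcs1 promoter is printed because it holds the sterol-element letters TCACNCCAC (in capitals), 137 bases before the start at their first base. Among the 22 sterol and fatty acid genes with a promoter entry, only 1 held these letters, Hmgcs1. The share was 1.39% of all tested genes with an entry and 1.24% of all 32851 single windows. The 250 bases shown are chr13:119690101-119690350, plus strand, GRCm38.p6.
Hmgcs1: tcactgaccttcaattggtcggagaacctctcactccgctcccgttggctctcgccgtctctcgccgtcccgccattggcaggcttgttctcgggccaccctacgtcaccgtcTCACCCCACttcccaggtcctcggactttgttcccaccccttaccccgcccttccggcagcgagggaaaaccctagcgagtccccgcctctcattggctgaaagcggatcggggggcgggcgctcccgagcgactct

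Most regulators of the ATF4 pathway had a higher response to TGF-β1 without BCAA. Of 22 such regulators, 17 had a higher response (77.3%, against 29.2% of all genes) and none a lower one, with a median difference of 1.11 log2. Amino acids in the cells and tRNA charging were not measured here, and the cause was not tested. The promoters of Atf3 and Chac1 are shown because ATF4 with a C/EBP partner is known to act through sites of the form TGATGNAA, whose reverse complement is in capitals. The windows are chr1:191183334-191183583, minus strand, and chr2:119350992-119351241, plus strand, on GRCm38.p6.
Atf3: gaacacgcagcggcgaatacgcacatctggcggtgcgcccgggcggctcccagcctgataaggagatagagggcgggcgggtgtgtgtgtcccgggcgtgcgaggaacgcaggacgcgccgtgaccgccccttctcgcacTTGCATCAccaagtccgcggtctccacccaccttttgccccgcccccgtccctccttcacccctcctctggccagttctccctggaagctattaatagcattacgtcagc
Chac1: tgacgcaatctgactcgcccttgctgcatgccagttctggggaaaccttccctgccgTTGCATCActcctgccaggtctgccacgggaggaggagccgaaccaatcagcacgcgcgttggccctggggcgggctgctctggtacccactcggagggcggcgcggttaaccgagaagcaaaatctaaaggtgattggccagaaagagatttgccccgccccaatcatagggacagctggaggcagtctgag
Of the 21 regulators with a promoter entry 7 held these letters on either strand (Atf3, Chac1, Fgf21, Jdp2, Nupr1, Trib3 and Vldlr). The share was 2.75% of all tested genes with an entry and 3.97% of all 32851 single windows.

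Ddit3 (CHOP), a transcription factor of the stress response, was at 15.9, 16.6 and 18 TPM in complete medium with PBS and 14.1, 23.3 and 13 with TGF-β1. In BCAA-free medium it was at 16.8, 18.1 and 13.7 TPM with PBS and 110, 240.4 and 209 with TGF-β1, so only the last group stood apart. The difference was 3.43 ± 0.32 log2 (adjusted p = 1.5e-08). Atf4 itself had responses of 0.49 and 2.05 log2 (adjusted p = 4.91e-05), Atf3 -0.50 and 2.67 (adjusted p = 1.72e-09), and Ppp1r15a, a phosphatase subunit that restores translation, -0.48 and 2.32. Trib3, a pseudokinase induced by ATF4 and CHOP, already rose in complete medium, from 3.84, 3.85 and 4.38 to 17.9, 25.3 and 16.6 TPM, and without BCAA from 4.46, 6.47 and 4.44 to 338, 181 and 202 TPM (difference 3.22, adjusted p = 3.97e-08). Chac1, which degrades glutathione, was enlarged in the same way (1.84 against 3.55 log2, adjusted p = 3.02e-05). The sensor kinase Eif2ak4 (GCN2) responded in neither medium. With PBS, removal of BCAA moved these genes little: the median of the 22 was -0.09 log2 and none passed, whereas with TGF-β1 it was 1.06.

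Genes that charge tRNAs had higher responses without BCAA. Of 20 cytosolic aminoacyl-tRNA synthetases, 18 had a higher response (90.0%, against 29.2%) and none a lower one. The median was 0.23 log2 in complete and 1.84 in BCAA-free medium. The leucyl-tRNA synthetase Lars was at 84.1, 86.2 and 90.0 TPM in complete medium with PBS, 89.2, 101 and 82.8 with TGF-β1, 91.7, 88 and 87.4 in BCAA-free medium with PBS and 363, 355 and 376 with TGF-β1. The last group lay above the other 9 libraries without overlap (difference 1.96 ± 0.12 log2, adjusted p = 1.29e-11). Iars and Vars, for isoleucine and valine, were gained too, but so were synthetases for other amino acids: Aars by 2.71, Wars by 2.30 and Yars by 2.45 log2 in BCAA-free medium. The enzymes Dars, Farsa, Hars, Kars and Qars did not reach the 1 log2 minimum in either medium.

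Amino acid synthesis followed, with 16 of 22 genes higher (72.7%) and 3 lower (median 0.94 log2). The aspartate aminotransferase Got1 had responses of 0.70 and 3.06 log2, the serine synthesis enzyme Phgdh 0.83 and 3.34, and the mitochondrial folate enzymes Shmt2 0.81 and 2.45 and Aldh1l2 2.45 and 4.16. Asparagine synthetase, Asns, a standard target of ATF4, rose in both media (1.92 and 2.49 log2), and its difference of 0.57 (adjusted p = 0.0344) was lost under 10 alternatives (adjusted p = 0.0513 to 0.119). Of 23 amino acid transporters, 10 had a higher and 4 a lower response (43.5% and 17.4%, against 29.2% and 18.4%; median 0.19 log2). The cationic amino acid carriers Slc7a1 and Slc7a3 were enlarged, 1.10 against 3.22 and 1.35 against 4.17 log2, and so was Slc7a5, the main importer of leucine. The cystine importer Slc7a11 gained a rise of 3.09 log2 and the glutamine carrier Slc38a1 one of 1.98.

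Genes of BCAA breakdown went both ways, with more lower than higher. Of 25, 4 had a higher and 9 a lower response (16% and 36%, against 29.2% and 18.4%), with a median of -0.01 log2. After centring these were 4 and 11, with a median of -0.13 log2. Bcat1, the cytosolic transaminase that starts BCAA breakdown, was enlarged, from 11.9, 14.2 and 15 to 50.5, 55.2 and 48.4 TPM in complete medium and from 18.9, 17.7 and 20.0 to 101, 155 and 162 TPM in BCAA-free medium (difference 0.96, adjusted p = 0.000195). The kinase Bckdk, which switches off keto acid oxidation, had a difference of -0.32 log2 (interval -0.65 to 0.02, adjusted p = 0.11) and passed after centring (-0.43, adjusted p = 0.0209) and without Free_PBS replicate 1 (-0.42, adjusted p = 0.0389). The opposing phosphatase Ppm1k had a lower response (-0.69, adjusted p = 0.00246). Acadsb, Auh and Pccb, enzymes further along the pathway, gained falls of -1.92, -1.05 and -1.78 log2. In complete medium Acadsb had a response of -0.65 log2 and Auh one of 0.11. Of 24 genes that control mTORC1, 9 had a higher and 4 a lower response (37.5% and 16.7%), close to the shares of all genes. Rragd, a Rag GTPase of the lysosomal nutrient sensor, and Fnip2, a partner of folliculin, gained rises of 2.41 and 1.52 log2, and Deptor, an mTOR inhibitor, fell further (-2.08 against -3.75).

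**Figure D3:**
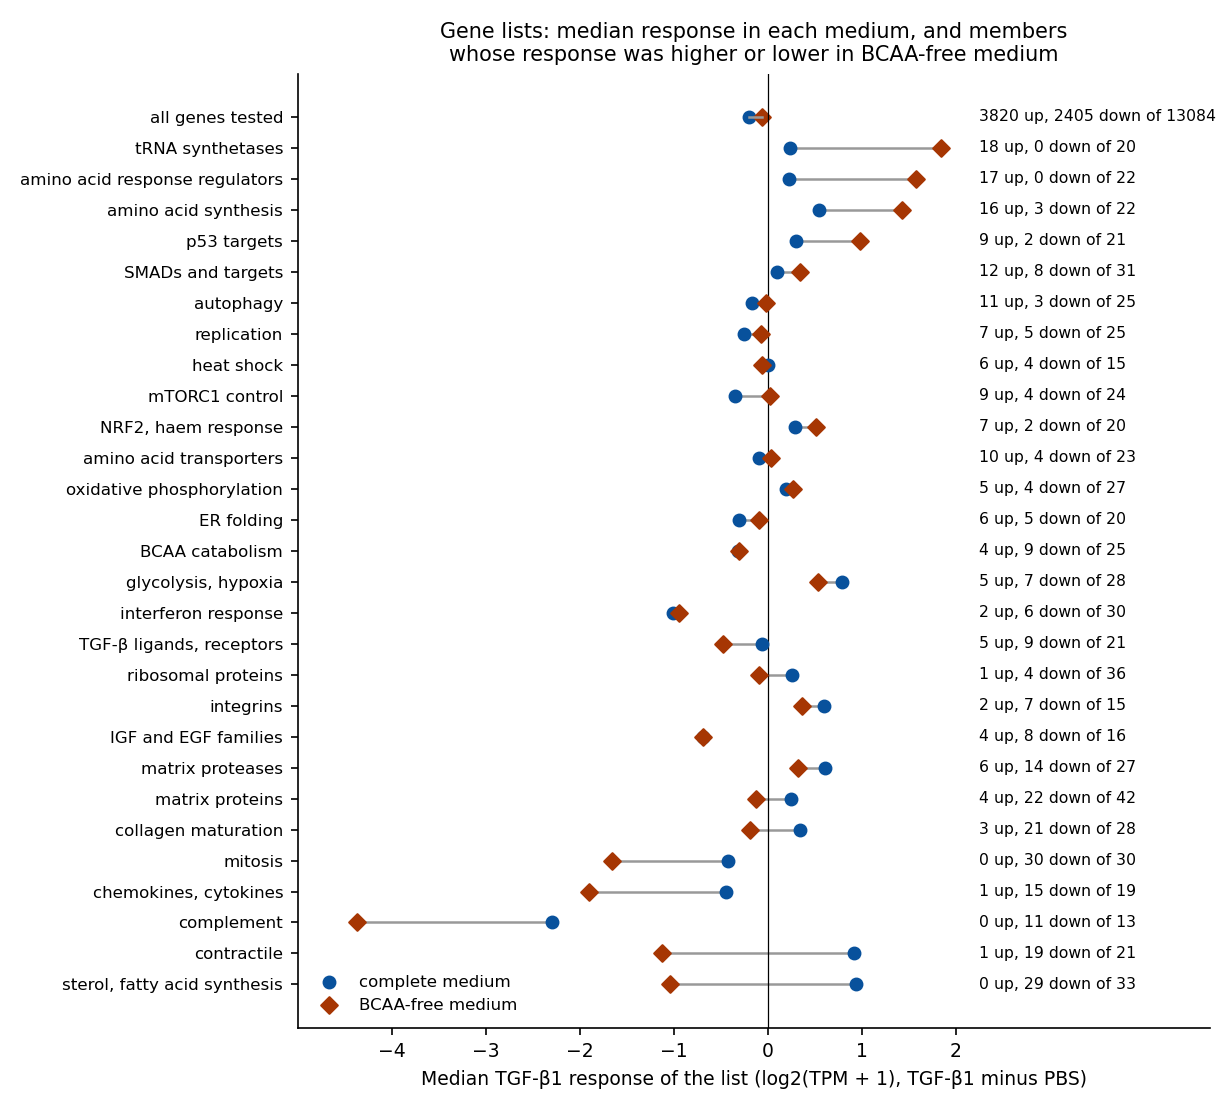
Median TGF-β1 response of each of 28 gene lists and of all tested genes on the x axis (log2(TPM + 1), TGF-β1 minus PBS), as circles for complete and diamonds for BCAA-free medium. The text beside each list gives the members whose response was higher (up) or lower (down) in BCAA-free medium. The 2 symbols lie on opposite sides of 0 for the contractile and the sterol lists, and the tRNA synthetases lie far to the right only without BCAA.

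Centring the libraries left these list counts close to their values as deposited. The contractile list then had 0 members higher and 19 lower (median -2.07 log2), so that Cald1 no longer passed. The sterol list had 0 and 29 (-2.13), the tRNA synthetases 18 and 0 (1.31), and the ATF4 pathway regulators 15 and 0 (0.99). The SMAD and target list, at 12 and 8 as deposited, came to 10 and 9.

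Mitotic genes had lower responses without BCAA, and many already differed between the media with PBS. All 30 tested had a lower response without BCAA (100%, against 18.4%), and 29 without Free_TGFb replicate 1, with a median of -0.42 log2 in complete and -1.66 in BCAA-free medium. With PBS, however, 22 of the 30 were higher in BCAA-free than in complete medium, out of 119 genes that passed that comparison in all (0.91%), and the median of the list was 0.84 log2. With TGF-β1 the median difference between the media was -0.39 log2. Mki67, a marker of cycling cells, was at 16, 17.4 and 14.5 TPM in complete medium with PBS and 32.3, 36.1 and 37.9 in BCAA-free medium (1.10 log2, adjusted p = 0.00265), and at 8.90, 6.23 and 7.86 and 3.20, 6.08 and 4.28 TPM with TGF-β1. The 4 groups did not overlap. Cenpf, a centromere protein, was 1.33 log2 higher without BCAA under PBS (adjusted p = 0.000525) and responded to TGF-β1 by -0.83 and -2.58. Genes of DNA replication went both ways, with 7 of 25 higher and 5 lower (28% and 20%, against 29.2% and 18.4%). The helicase subunits Mcm2 and Mcm7 had higher responses (-0.38 against 1.96 and -1.24 against 0.87 log2) and the nucleotide reductase subunit Rrm2 a lower one (0.09 against -1.17).

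For the contractile, sterol and tRNA synthetase lists the difference lay almost wholly between the groups with TGF-β1. BCAA removal under PBS gave a median of 0.21 log2 for contractile genes, 0.09 for sterol genes and 0.03 for tRNA synthetases, and under TGF-β1 -1.97, -2.15 and 1.41. Of the 21 contractile genes 3 passed under PBS, against 119 of all 13084 genes (0.91%). Acta2 and Tagln were among these 3, which were all higher without BCAA. By gene, the difference between the media was larger with TGF-β1 than with PBS at 346 of 370 lost, 45 of 45 reversed, 396 of 398 enlarged and 1648 of 1704 gained genes. The same held at 31 of 46 reduced and 285 of 442 kept genes, and at 11134 of all 13084 genes (85.1%). The sets were chosen on a difference that contains the TGF-β1 groups, so nothing is read from these counts. In the reduced set, Clec3b, an adventitial fibroblast marker, already differed between the PBS groups. It was at 13.8, 13.2 and 13.4 TPM in complete and 5.42, 3.57 and 2.46 in BCAA-free medium with PBS, at 0.145, 0 and 0.180 and 0, 0 and 0.0424 TPM with TGF-β1, and its call was lost at a pseudocount of 0.1 (adjusted p = 0.0719).

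**Figure D4:**
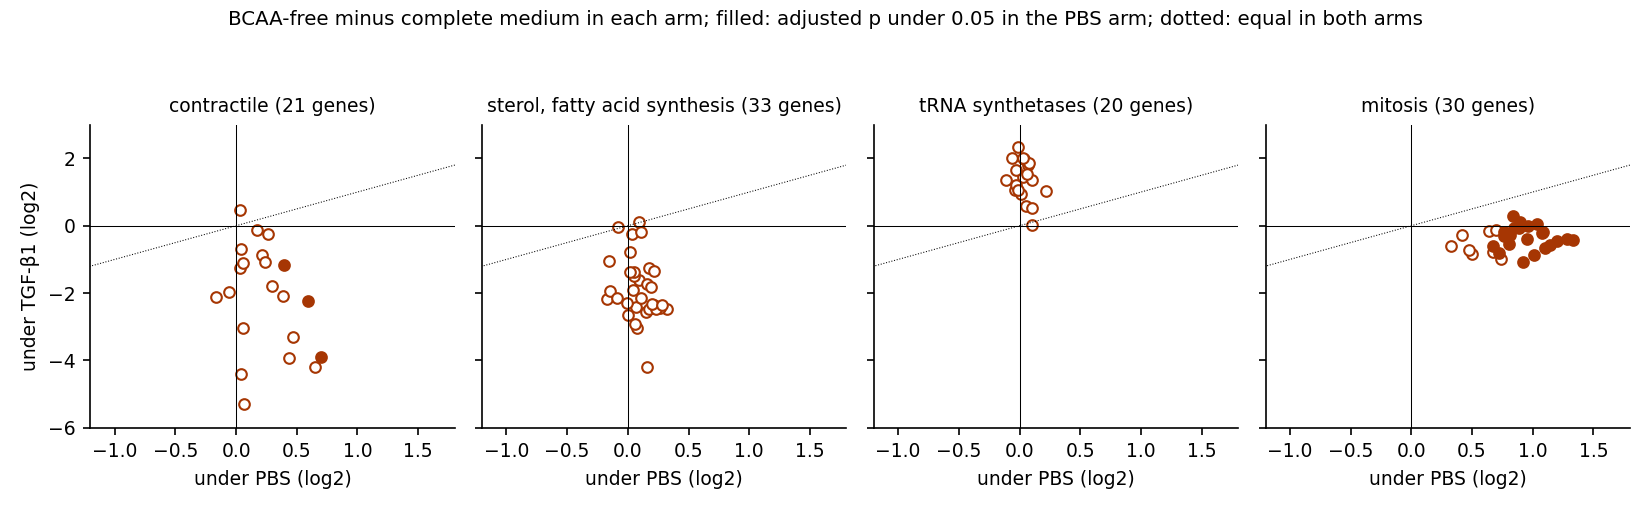
Each point is a gene of 4 lists, with the difference between BCAA-free and complete medium under PBS on the x axis and under TGF-β1 on the y axis (log2(TPM + 1)). Contractile and sterol genes lie mostly below 0 on the y axis and tRNA synthetases above it, all within 1 log2 of 0 on the x axis, whereas mitotic genes lie to the right. Filled points passed under PBS, and the dotted line marks equal differences.

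Most secreted complement components tested fell with TGF-β1 in complete medium and fell further without BCAA. Of 13 complement genes, 11 had a lower response without BCAA (84.6%, against 18.4%) and none a higher one, with medians of -2.30 log2 in complete and -4.37 in BCAA-free medium. Complement C3, the central component, was at 8842, 9649 and 8679 TPM in complete medium with PBS and 1043, 650.3 and 1102 with TGF-β1, and in BCAA-free medium at 7923, 7801 and 8615 and 132, 204 and 203. The treated libraries lay far below the PBS libraries in both media and lowest in BCAA-free medium, and the difference was -2.20 ± 0.24 log2 (adjusted p = 1.76e-07). The membrane regulators Cd55 and Cd59a responded in neither medium. The C1 inhibitor Serping1 and the protease C1ra were enlarged as well (-2.11 against -4.95 and -2.62 against -4.77 log2). C7, of the membrane attack complex, was kept (-5.92 and -6.37, interval of the difference -1.13 to 0.23), and passed only with array weights (-0.77, adjusted p = 0.0057). The acute-phase protease inhibitor Serpina3n fell from 7676, 8254 and 7784 to 1415, 1266 and 1408 TPM in complete and from 8193, 9576 and 9321 to 49.9, 94.4 and 73.4 TPM in BCAA-free medium (adjusted p = 2.98e-13). The lymphatic growth factor Vegfd (-1.04 against -5.84 log2) and the extracellular superoxide dismutase Sod3 (-1.16 against -4.97) were also enlarged.

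Of 19 chemokines and cytokines, 15 had a lower response without BCAA (78.9%) and 1 a higher one (median -1.30 log2). The stromal chemokine Cxcl12 gained a fall, with a mean of 1535 TPM under TGF-β1 in complete and 275 in BCAA-free medium (-0.44 against -2.99 log2). The alarmins Il33 and Tslp were enlarged (-1.87 against -4.13) and reversed (1.50 against -1.17), and Cxcl14 was lost (2.79 against 0.84). Of 16 genes of the insulin-like and epidermal growth factor families, 8 had a lower and 4 a higher response (50% and 25%, against 18.4% and 29.2%). Igfbp2, which binds insulin-like growth factors, kept part of its rise: 5.64, 4.21 and 5.00 TPM became 412, 666 and 445 in complete and 5.90, 5.62 and 3.73 became 149, 58.1 and 68.6 in BCAA-free medium (difference -2.57, adjusted p = 3.84e-06). Its relative Igfbp3 went the opposite way. It was at 157, 146 and 175 TPM and, with TGF-β1, 54.9, 63 and 47.1 in complete medium, but at 121, 108 and 113 and then 1079, 719 and 806 in BCAA-free medium (-1.52 against 2.90 log2, adjusted p = 2.28e-14). Igf1 gained a fall of -3.76 log2, against -0.67 in complete medium.

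Of the fibroblast markers, 10 of 14 had a lower and 1 a higher response (71.4% and 7.14%, against 18.4% and 29.2%; median -0.84 log2). Already under PBS, 4 of the 14 differed between the media, against 119 of all 13084 genes (0.91%). The ferritin receptor Scara5 fell further without BCAA (-4.08 against -6.43 log2), the elastic fibre protein Mfap4 was lost (1.70 against -0.54) and nephronectin, Npnt, gained a fall of -1.99 log2. The 4 immune markers tested were all lower, Cd14, Cd68, Csf1r and Lyz2, while the summed immune marker level was 7.85 to 9.24 TPM in BCAA-free medium with TGF-β1 and 26.6 to 31.4 in complete medium with TGF-β1. In the PBS groups that immune level was 49.9 to 51.9 TPM in complete and 50.9 to 58.4 in BCAA-free medium. Most of each sum was Cd14 alone. It averaged 42.7 TPM with PBS and 16.4 with TGF-β1 in complete medium, and 46.0 and 6.43 in BCAA-free medium. The 7 mesothelial markers summed to 97.5 to 107 TPM in complete medium with PBS, 44.0 to 45.0 with TGF-β1, 69.5 to 77.1 in BCAA-free medium with PBS and 18.02 to 20.2 with TGF-β1. Of the 6 tested, 3 had a lower response and Krt19 a higher one, and Calb2 was at 0 in both groups with TGF-β1. The 12 epithelial markers summed to 11.4 to 12.1, 4.13 to 4.90, 5.97 to 9.93 and 2.43 to 3.73 TPM in the same order and the 4 tested, Ager, Hopx, Krt8 and Krt18, had adjusted p-values of 0.167 to 0.477. The 9 endothelial markers summed to 8.65 to 20.4 TPM in the 12 libraries, and 1 of 4 tested had a lower response. Most of that sum was Egfl7, with means of 7.20, 14.1, 7.78 and 9.55 TPM in the same order. Emcn averaged 0.693, 0.0407, 1.11 and 0 TPM, so the sum does not show that each marker stayed level. Of 7 pericyte and smooth muscle markers tested, 3 were lower and none higher. The part of other cells in the result was not tested.

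Wide gains were also found outside these lists. Tenm4, a teneurin of the cell surface, was at 0.356, 0.317 and 0.0495 TPM in complete medium with PBS and 0.483, 0.0859 and 0.253 with TGF-β1, and in BCAA-free medium at 0.336, 0.0739 and 0 and 69.2, 104 and 107. Only the last group was above 1 TPM (difference 6.33 ± 0.23 log2, adjusted p = 2.49e-15). The α2A-adrenergic receptor Adra2a (-0.52 against 5.13 log2), the actin-binding advillin Avil (0.34 against 4.76) and the laminin chain Lama1 (-0.18 against 3.25) were gained likewise. Chchd10, a mitochondrial intermembrane protein, rose by 1.15 log2 in complete and 5.66 in BCAA-free medium (adjusted p = 1.09e-09). Aoc3, a vascular amine oxidase, gained a fall of -5.74 log2, against -0.96 in complete medium. The 5 falls that were reversed into rises were Dlg2, Igfbp3, Mdn1, Rrs1 and Zfhx2. Rrs1 and Mdn1 are factors of ribosome assembly (-1.01 against 1.58 and -1.23 against 1.53 log2, adjusted p = 1.3e-11 and 1.67e-07). Ribosome assembly genes were not examined as a list.

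The libraries with BCAA or BCKA returned had no part in the sorting, although they share the fit's estimate of the spread. With BCAA returned, 373 genes rose (2.85%) and 976 fell (7.46%) with TGF-β1, and with BCKA returned 395 rose (3.02%) and 974 fell (7.44%). Of the 370 lost genes, 273 (73.8%) responded in the direction of complete medium with BCAA returned and 234 (63.2%) with BCKA returned. Of the 45 reversed genes 35 (77.8%) and 32 (71.1%) did. The kept genes did so at 382 (86.4%) and 345 (78.1%) of 442, and the enlarged genes at 369 (92.7%) and 357 (89.7%) of 398. Of the 1704 gained genes 63 (3.7%) and 108 (6.34%) responded in the direction seen without BCAA. Lost rises had a median of 1.30 log2 with BCAA and 1.25 with BCKA, against 1.30 in complete and 0.00 in BCAA-free medium. Lost falls had -1.09 and -1.02, against -1.21 and -0.26. By direction, 85.7% of lost rises and 64.6% of lost falls responded as in complete medium with BCAA returned, and 76.4% and 53.1% with BCKA. Enlarged falls stood at -1.63 and -1.60, against -1.57 and -2.99.

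Levels of single genes in these libraries are given next. Acta1 was at 81, 88.7 and 79.4 TPM with BCAA returned and TGF-β1 and at 52.4, 60.4 and 62.5 with BCKA returned, against 0.571, 0.895 and 0.933 without. Acta2 was at 2257, 2481 and 2095 and 2316, 2438 and 2120 TPM, above every library of BCAA-free medium. Lars was at 90.9, 98 and 85.9 and 94.3, 90.9 and 88.5 TPM, below the treated libraries without BCAA. Tenm4 was at 0.182, 0.306 and 0.256 and 0.186, 0.366 and 0.249 TPM. The responses of Igfbp3 were -1.64 and -1.44 log2 with BCAA and with BCKA, a fall as in complete medium. Among the lists, the median response of the contractile genes was 0.87 and 0.97 log2, that of the sterol genes 0.83 and 0.77, and that of the tRNA synthetases 0.24 and 0.11. Whether these responses differ from those in complete medium was not tested.

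**Figure D5:**
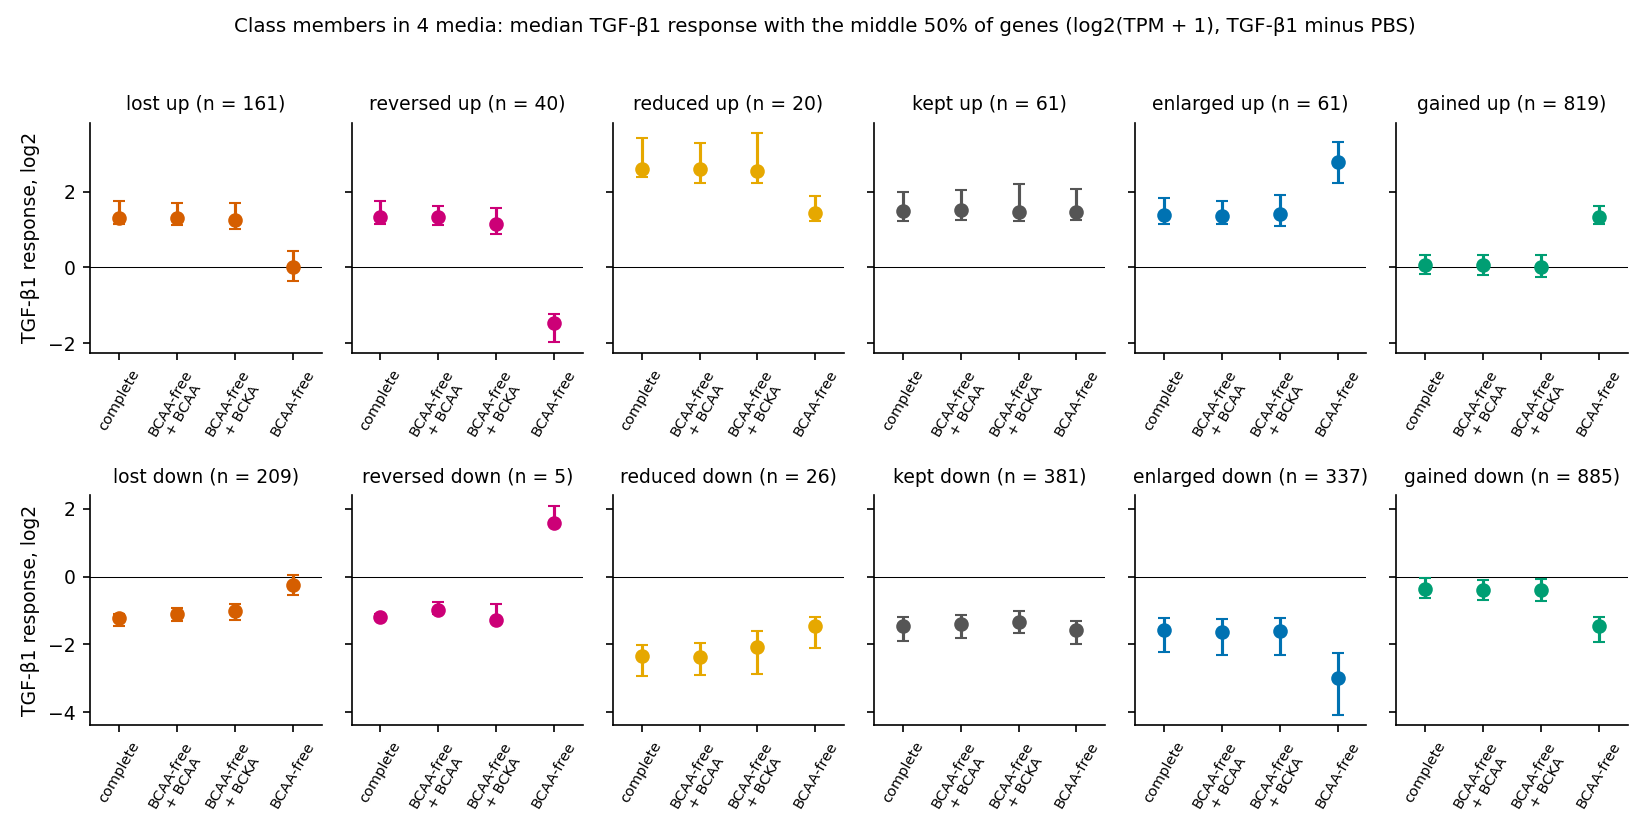
Median TGF-β1 response (log2(TPM + 1)) of the lost, reversed, reduced, kept, enlarged and gained genes, split by direction, in complete medium, BCAA-free medium and BCAA-free medium with BCAA or BCKA returned. Points are medians and bars hold the middle 50% of genes. The sets were chosen on the first 2 media, and with BCAA or BCKA returned the medians lie near those of complete medium.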

How the data were processed

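Poly(A) RNA of 54 samples was sequenced, and the 24 fibroblast libraries were used; the tables of whole lung were not used here. The authors deposited TPM values per gene for fibroblasts, 1 column per sample, all of which were assigned to samples (0 columns without one). Per the submitters' processing notes, FastQC, Trim Galore, HISAT2, Subread featureCounts and DESeq2 were used with mm39; their roles and versions, and the annotation, are not given in the sources used here. The analysis rests on TPM alone, so depth and counting error are unknown. TPM is a share of a library, so a few very abundant genes move all others.

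Values were taken as log2(TPM + 1); fold changes understate those of low genes. Group means of all 8 fibroblast groups were fitted with limma 3.58.1 under R 4.3.3, with the trend option for the variance, and p-values were Benjamini-Hochberg adjusted over 13084 genes, two-sided at 0.05. SE and 95% intervals are limma's.

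Named genes were, per set and direction, the 5 largest differences (kept: the largest smaller response) with a mean TPM of at least 5 and the same set without Free_TGFb replicate 1, the 4 largest of each list, and fixed genes such as Col1a1, Acta2 and Asns. Some genes that this rule names are not reported here. Another 9 were chosen after their values were seen: Tagln, Myl9, Hmgcs1, Chac1, Il11, Eln, Col1a2, Nox4 and Tgfb1. The text gives a selection, made with values seen; sets and lists are given by counts and by members' names. The comparison, the 28 gene lists and 6 marker lists were chosen with earlier results of these data known. The procedure was tested on simulated data with the same spread in every library and no outlying library, which does not cover Free_TGFb replicate 1. Planted differences were recovered at 72.4% of genes for 1 log2 and 99.2% for 2 log2, and 4.77% of called genes were false. Promoters are from RefSeq (GRCm38.p6, not the build of the files), and 10453 of 13084 genes matched. Motif counts are given for the contractile, ATF4 regulator and sterol lists (85.7%, 95.5% and 66.7% matched), for all tested genes and for all windows. Other lists were searched too, the mitotic list (90.0% matched) among them, and their counts are not given here. The other settings tried were a pseudocount of 0.1 or 0.5, all listed genes or those with a TPM of at least 5, median centring, the 12 libraries alone, array weights, a replicate block, response minimums of 0 and 2 log2, and each library left out.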

Additional observations from a re-analysis of the deposited data

Results flagged for a closer look

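The response to TGF-β1 differed between complete and BCAA-free medium at 6225 genes by the interaction test in limma. Among the named genes, some had responses of opposite direction in the 2 media, each past the threshold, with an interaction that passed as well. Genes that rose in complete and fell in BCAA-free medium, with their difference in log2, were Cnn1 (-4.83), Cthrc1 (-4.72), Acta2 (-4.60), the calcium channel Cacna1g (-4.46), the angiopoietin Angpt4 (-4.43), the glycolytic aldolase Aldoc (-4.04), the respiratory subunit Cox4i2 (-3.31), Scd2 (-2.97), Tslp (-2.67), the chaperone Cryab (-2.52), Hmgcs1 (-2.47) and Tgfb2 (-2.31). Genes that fell in complete and rose in BCAA-free medium were Igfbp3 (4.42), the scaffold protein Dlg2 (3.20), Mdn1 (2.75), Rrs1 (2.59) and Zfhx2 (2.35). Cryab is no responder in BCAA-free medium without Free_TGFb replicate 1, where its difference was -2.07 log2.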

How the results depend on the processing

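The number of genes with a changed response was 5661 to 7430 when single libraries were left out, 4589 with the 12 libraries alone and 8480 with array weights. Without single libraries, that of responders 1355 to 1552 in complete and 2813 to 3306 in BCAA-free medium, and that of lost genes 328 to 422, reversed 44 to 47, reduced 41 to 64, kept 409 to 483, enlarged 374 to 411 and gained 1633 to 2055. With a replicate block the counts were 6250 changed, 370 lost and 438 kept; the labels do not tie the numbers to shared cultures, deviations of same-numbered libraries correlated from -0.25 to 0.54 and over 0.1 in 7 of 18 pairs, and the block moved no count by over 1.5 times. Set sizes depend on the response minimum. With none there were 1091 lost, 1029 reversed, 241 reduced, 2171 kept, 1093 enlarged and 2611 gained genes, and at 2 log2 64, 1, 13, 75, 119 and 526. A pseudocount of 0.1 gave 87 reversed and 674 kept genes, and array weights 77 reduced ones; the cause was not tested. Of 173 named genes past the threshold, 162 stayed past it with the same sign under every alternative. Those that did not were Asns, Atf6, Clec3b, Col1a1, Cox6c, Cox7b, Ifit3, Ndufa1, Rpl37, Rps2 and Tgfb1. Depth is unknown, which limits statements on low genes.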

Other observations

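Stress and housekeeping lists held members of both directions. Of all genes 29.2% had a higher and 18.4% a lower response. Of 20 genes of the NRF2 and haem response 7 had a higher and 2 a lower response without BCAA (35% and 10%), and 11 and 4 without Free_TGFb replicate 1. Hmox1, haem oxygenase 1, was at 110.2, 94.5 and 116 TPM in complete medium with PBS and 102, 106 and 103 with TGF-β1, and in BCAA-free medium at 57.5, 60.3 and 53.6 and 319.5, 549.6 and 561, so it was lowest with PBS and highest with TGF-β1 there (difference 3.04 log2, limma adjusted p = 1.35e-10; under PBS -0.89, adjusted p = 0.00334). The thioredoxin reductase Txnrd1 gained a rise of 2.66 log2. Of 15 heat shock genes 6 were higher and 4 lower (40% and 26.7%): the mitochondrial chaperone Hspd1 gained a rise of 1.99 log2, and the small heat shock protein Hspb1 lost its rise (1.84 against -0.24). Of 21 p53 targets 9 were higher and 2 lower (42.9% and 9.52%), with Mdm2, the ubiquitin ligase of p53, at 0.30 against 1.54 log2 and the death receptor Fas at -0.44 against -1.84.

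Of 25 autophagy genes 11 were higher and 3 lower (44% and 12%, against 29.2% and 18.4% of all genes), with the cargo receptor Sqstm1 at -0.21 against 1.47 log2. Glycolysis and hypoxia genes were mixed, with 5 of 28 higher and 7 lower (17.9% and 25%): hexokinase Hk2 was enlarged (1.61 against 3.32 log2) and the hypoxia marker Car9 lost (1.43 against -0.65). Oxidative phosphorylation had 5 of 27 higher and 4 lower (18.5% and 14.8%), and endoplasmic reticulum folding 6 of 20 higher and 5 lower (30% and 25%), the latter with Hspa5 at -0.69 against 0.52 log2. Of 36 ribosomal protein genes 1 was higher and 4 lower (2.78% and 11.1%), and 1 and 12 after centring; reads of these genes are uncertain because of near-identical copies. Of 30 interferon response genes 2 were higher and 6 lower (6.67% and 20%), and 2 and 11 without Free_TGFb replicate 1.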
